A study of Mus musculus with 12 samples.

Results

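Cadherins and other junction proteins hold neighbouring cells together, and 8 of their genes were followed here in cultured mouse fat fibroblasts: the cadherins Cdh1, Cdh2, Cdh11 and Cdh13, the connexins Gja1 and Gjb2, and the tight junction genes Cxadr and Tjp1. The genes were chosen by name with earlier results of these data known, and were found by the platform's gene symbol. All 8 were among the 12393 genes measured. They were represented by 19 probe sets of the 22626 in the table. The cells were proliferating fibroblasts, with or without green fluorescent protein (GFP), from cultures of the stromal vascular fraction, which is what remains of fat once the fat cells are removed. Each of 2 depots, inguinal and epididymal, gave a GFP+ and a GFP- group, and each of the 4 groups had 3 arrays. Inguinal fat lies under the skin and epididymal fat in the abdomen. All groups came from male Zfp423-GFP transgenic mice (genetic background FVB and C57BL/6), 6 to 8 weeks old, and grew in DMEM/F12 with fetal bovine serum until they were harvested before growth arrest. GFP thus reports the transgene and not the protein Zfp423, a zinc-finger factor of fat cell commitment. The design asks how GFP+ differ from GFP- fibroblasts in each depot, and how the depots differ.

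Cadherins are membrane proteins that bind their own kind on the next cell and reach the actin cytoskeleton through catenins. Connexins assemble into gap junctions, channels that join the cytoplasm of adjacent cells, and tight junctions seal epithelial sheets. Fibroblasts are known for Cdh2 and Cdh11 and for few tight junctions. The mesothelium, the epithelial sheet that covers abdominal organs and epididymal fat, makes junctions of both kinds.

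Values are probe set signals on a linear scale. Tests used limma on log2(signal + 16) over all 12 arrays, with Benjamini-Hochberg adjustment over 12393 genes, and a gene was called at an adjusted p under 0.05. A gene with several probe sets was represented by the one with the highest mean. Array medians lay between 347.3 and 371.2. Genes in the lowest 30% of means, under a signal of 77.7, are termed weakly detected; 6 of the 8 genes were above that level and Cdh1 and Cdh13 were below it. Olfactory receptor genes, which fibroblasts do not use, had a median signal of 19.9 to 22.3 in the 4 groups (31 genes) and a 90th percentile of 44.6 to 66.7. No label says that replicates were separate animals or cultures, so p-values cover only the spread among the arrays at hand, part or all of which may be technical. The number of arrays limits the precision.

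Zfp423 and the labelled cell type were checked first. Zfp423 signal was 124 ± 22.9 (SD, n = 3) in inguinal GFP+, 57.4 ± 13.8 in inguinal GFP-, 242 ± 35.1 in epididymal GFP+ and 29.4 ± 3.80 in epididymal GFP- cells, higher in GFP+ cells of both depots (adjusted p = 0.00198 in inguinal and 8.53e-09 in epididymal cells, limma). All 7 fibroblast markers measured (among them Pdgfra, Col1a1 and Dcn) were above the weak level in each group. Of 13 mesothelial markers, 3 were above it in inguinal GFP+, 5 in inguinal GFP-, 11 in epididymal GFP+ and 13 in epididymal GFP- cells. Their summed signal was 2483 to 2832, 2501 to 2637, 11544 to 12110 and 56292 to 60815 in these groups. All 13 macrophage and leukocyte markers were above the weak level in inguinal GFP- cells, where they summed to 10986 to 13053, against 1964 to 2298 in inguinal GFP+, 2713 to 2796 in epididymal GFP+ and 2673 to 3111 in epididymal GFP- cells. Endothelial markers had 2 or 3 of 9 above the weak level in every group. Their sum was 5429 to 5646 in epididymal GFP- cells, where Kdr read 4469 and Esam 825, and at most 1137 elsewhere. Emcn averaged 73.6 in epididymal GFP+ cells and at most 35.1 in the other groups, and Pecam1, Tie1 and Erg at most 35.3 in every group. Markers of other epithelia had 2 or 3 of 10 above the weak level and summed to 3286 to 4155 in epididymal GFP- cells and at most 1098 elsewhere. Most of the sum in epididymal GFP- cells was Spint2 (2798), with Elf3 at 492 and Krt14 at 144. Epcam, Trp63, Krt15 and Krt17 averaged at most 34.5 in every group. Of 9 mural cell markers, 6 were above the weak level in every group. All 9 summed to 53532 to 54915 in inguinal GFP+ and 57325 to 57486 in inguinal GFP- cells. The sums were 69433 to 70966 in epididymal GFP+ and 59564 to 60342.5 in epididymal GFP- cells. In inguinal GFP+ cells 2 rose and 4 fell (66.7% called, against 12.6% of all genes). In epididymal GFP+ cells 4 rose and 2 fell (66.7%, against 41.9%). Their part in the junction gene differences was not tested. In a culture sampled in bulk, fewer cells of a type and less RNA per cell cannot be told apart.

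Gjb2 gave signal in inguinal cells and background in epididymal cells, and Cxadr did the reverse. Cdh2, Cdh11, Gja1 and Tjp1 were bright in every group and highest in epididymal GFP- cells. Cdh1 lay at background throughout, and Cdh13 did not differ beyond its spread in any comparison.

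**Figure D1:**
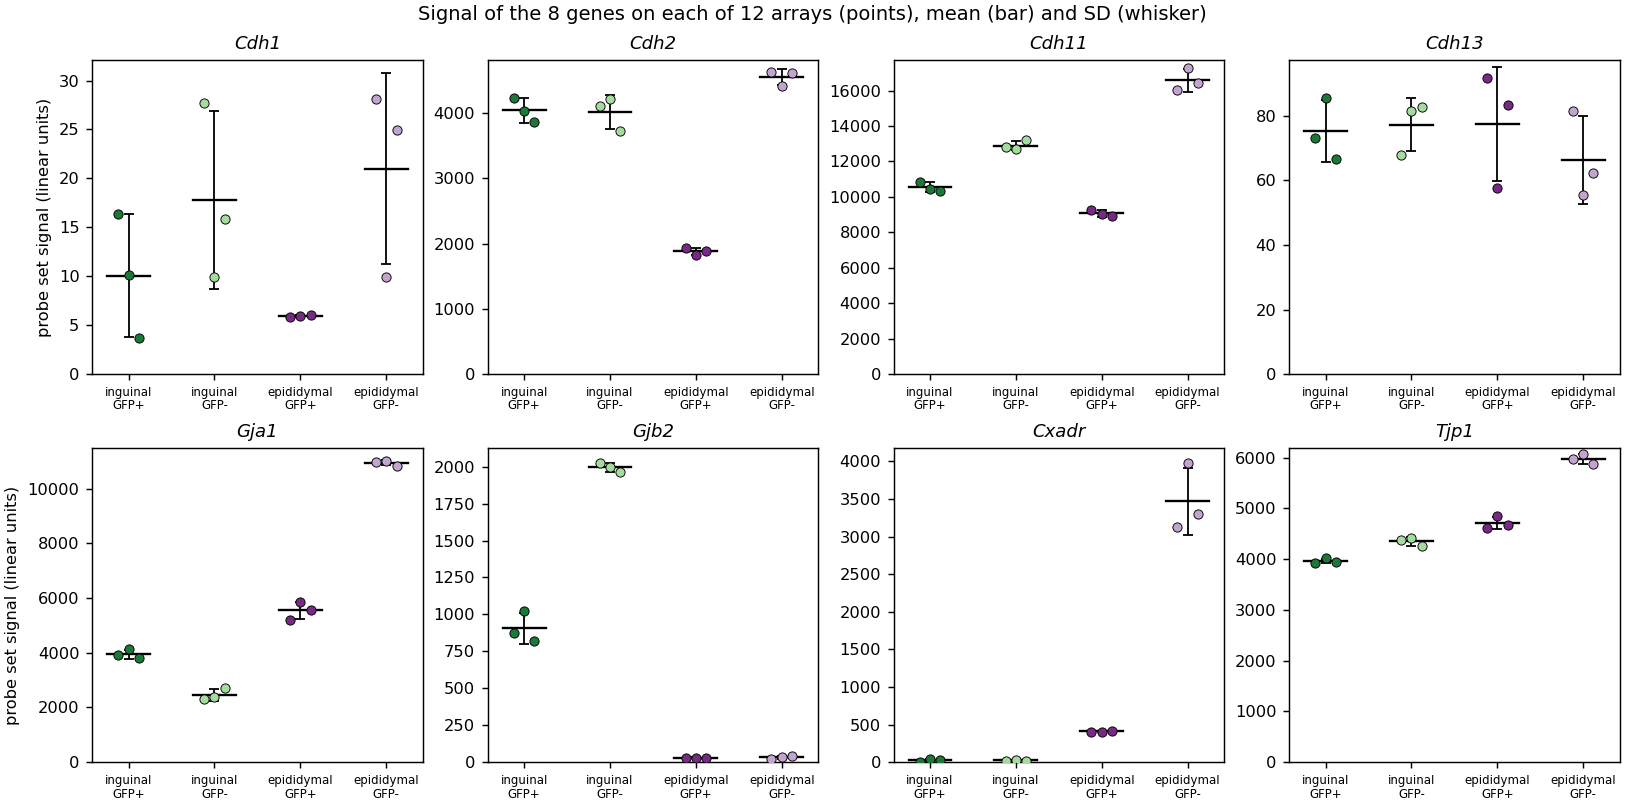
Probe set signal (linear units, a separate axis from 0 in each panel) of the 8 genes on each array; points are arrays, bars the mean and whiskers the SD of 3 arrays. Gjb2 stands above background in the inguinal groups and Cxadr in the epididymal groups, while Cdh1 reads at most 28.1 on any array.

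Among the cadherins, Cdh11, a cadherin of mesenchyme and osteoblasts, was lower in GFP+ cells of both depots. Its signal on the 3 arrays was 10847, 10465 and 10307 in inguinal GFP+ and 12786, 12706 and 13183 in inguinal GFP- cells. It was 9286, 9005 and 8916 in epididymal GFP+ and 16013, 17298 and 16447 in epididymal GFP- cells. The 4 groups did not overlap at any point, and each neighbour in the order from epididymal GFP- through inguinal GFP- and inguinal GFP+ down to epididymal GFP+ differed. Cdh11 fell by 0.29 ± 0.03 (SE) on the log2 scale in inguinal GFP+ against GFP- cells (adjusted p = 6.56e-06, limma) and by 0.87 ± 0.03 in epididymal cells (adjusted p = 1.15e-12). The decrease was larger in epididymal cells by 0.58 ± 0.04 (interaction, adjusted p = 2.36e-08). Between depots Cdh11 went in opposite directions in the GFP+ and GFP- cells, inguinal cells being higher among GFP+ cells (0.22 ± 0.03, adjusted p = 2.25e-05) and lower among GFP- cells (-0.36 ± 0.03, adjusted p = 4.09e-08).

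Cdh2, the neural cadherin that fibroblasts also carry, was singled out by its low level in epididymal GFP+ cells. The arrays read 1934, 1823 and 1889 there, against 4626, 4406 and 4606 in epididymal GFP- cells. Inguinal arrays lay between, with 4224, 4035 and 3855 in GFP+ and 4108, 4210 and 3728 in GFP- cells. The inguinal groups overlapped each other, and epididymal GFP+ cells overlapped no other group. Epididymal GFP- cells were above inguinal GFP+ cells by a small amount (-0.17 ± 0.05 for inguinal GFP+ against epididymal GFP-, adjusted p = 0.00455). The log2 fold change of GFP+ against GFP- was 0.01 ± 0.05 in inguinal cells (adjusted p = 0.935) and -1.27 ± 0.05 in epididymal cells (adjusted p = 1.61e-12), a difference between depots of 1.27 ± 0.06 (adjusted p = 2.37e-10). Among GFP+ cells the inguinal level was higher by 1.09 ± 0.05 (adjusted p = 1.89e-11), and among GFP- cells it was lower by a small amount (-0.18 ± 0.05, adjusted p = 0.00334). The other probe set of Cdh2 gave -0.06 in inguinal cells (adjusted p = 0.535, over 20380 probe sets) and -1.53 in epididymal cells (adjusted p = 6.55e-13), and -0.62 between depots in GFP- cells (adjusted p = 2.39e-08).

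Cdh1, the epithelial cadherin, gave between 3.73 and 28.1 on the 12 arrays, below the median of olfactory receptor genes in its own group on all but 3 of them. Signal was 5.82, 5.91 and 6.06 in epididymal GFP+ and 28.1, 9.88 and 24.96 in epididymal GFP- cells. Inguinal arrays read 16.3, 10.1 and 3.73 in GFP+ and 27.7, 9.88 and 15.8 in GFP- cells. The epididymal groups did not overlap, and limma called Cdh1 lower in epididymal GFP+ cells (-0.72 ± 0.28, adjusted p = 0.0495), but values at this level do not measure expression. The call ended on leaving out any of 7 arrays (adjusted p up to 0.171, without epididymal GFP- replicate 1). No other comparison called Cdh1.

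Cdh13, a cadherin that is anchored to the membrane by a lipid and binds adiponectin, was weakly detected. Group means were 75.2 ± 9.57 in inguinal GFP+, 77.3 ± 8.30 in inguinal GFP-, 77.6 ± 17.6 in epididymal GFP+ and 66.4 ± 13.6 in epididymal GFP- cells (SD, n = 3 each). All groups overlapped, and none of the 6 pairs of groups or the interaction was called (smallest adjusted p = 0.43). The other Cdh13 probe sets read 45.9 to 69.1 and 22.9 to 30.2 in the group means and were not called in any of the 7 comparisons either. The standard error of a pair of groups was 0.19 for Cdh13, more than the 0.13 by which Tjp1 differed between inguinal groups, so a difference of that size was not detectable.

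The connexins differed between depots in opposite directions. Gjb2, a connexin best known from the inner ear and skin, read 875, 1020 and 819 in inguinal GFP+ and 2022, 2000.1 and 1962 in inguinal GFP- cells. In epididymal cells it read 31.3, 27.7 and 31.2 (GFP+) and 22.5, 35.7 and 38.4 (GFP-), within the range of olfactory receptor genes. Every inguinal array was above every epididymal one, and the inguinal groups did not overlap each other. Gjb2 was higher in inguinal cells by 4.32 ± 0.13 among GFP+ cells (adjusted p = 4.07e-13) and by 5.40 ± 0.13 among GFP- cells (adjusted p = 5.62e-15). Because the epididymal level is background, these sizes depend on the pseudocount: with 1 in place of 16 they were 4.86 and 5.94 and with 64 they were 3.36 and 4.42. Within inguinal cells Gjb2 fell by 1.13 ± 0.13 in GFP+ against GFP- cells (adjusted p = 1.46e-05), while the epididymal contrast was -0.05 ± 0.13 (adjusted p = 0.81). The GFP contrast differed between depots (-1.08 ± 0.18, adjusted p = 0.000191), though a gene at background in 1 depot cannot fall there. Gjb2 was highest in the group that also held the most macrophage signal, in which Lyz2 read 4011 and C1qa 808 against 201 and 12.3 in inguinal GFP+ cells. In all, 11 of 13 macrophage and leukocyte markers fell in inguinal GFP+ cells and none rose (84.6% called, against 12.6% of all genes). Their part in that Gjb2 difference was not tested. Between depots among GFP+ cells, 6 of these markers were lower in inguinal cells and none was higher (46.2% called, against 50.8% of all genes). Gjb2 was also higher in inguinal cells there. Among GFP- cells, where the Gjb2 difference was larger, 11 of the 13 were higher in inguinal cells and 1 was lower (92.3% called, against 53.7%). The part of these markers in the depot differences of Gjb2 was not tested either.

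Gja1, the connexin most widely used by fibroblasts, moved against GFP in opposite directions in the depots. Its arrays read 3902, 4129 and 3803 in inguinal GFP+ and 2315, 2366 and 2707 in inguinal GFP- cells. They read 5206, 5854 and 5576 in epididymal GFP+ and 10964, 11028 and 10839 in epididymal GFP- cells. No groups overlapped, and the order ran from epididymal GFP- through epididymal GFP+ and inguinal GFP+ to inguinal GFP- with every neighbour different. Gja1 rose by 0.68 ± 0.05 in inguinal GFP+ against GFP- cells (1.602-fold in the means, adjusted p = 2.61e-07) and fell by 0.98 ± 0.05 in epididymal cells (adjusted p = 2.42e-10), a difference of 1.66 ± 0.08 between depots (adjusted p = 5.80e-11). Inguinal cells were lower by 0.49 ± 0.05 among GFP+ cells (adjusted p = 1.36e-06) and by 2.15 ± 0.05 among GFP- cells (adjusted p = 8.32e-15). Of the 6 Gja1 probe sets, the 4 brightest gave 0.65 to 0.72 in inguinal and -1.06 to -0.98 in epididymal cells and were called in both. A dimmer one gave 0.48 (adjusted p = 0.0563, over 20380 probe sets) and -0.55 (adjusted p = 0.00866), and the dimmest, at group means of 15.2 to 32.3, was not called in either. Between depots among GFP+ cells the 4 brightest gave -0.49 to -0.36 and were called. The dimmer one overlapped there and was not called (-0.23, adjusted p = 0.234), nor was the dimmest (-0.48, adjusted p = 0.14).

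RefSeq promoter windows were searched for 3 of the 8 genes, Gja1, Gjb2 and Tjp1. The connexin promoters are shown because these are the genes with opposite depot patterns. Each is the 250 bases before the gene start in GRCm38.p6, read 5′ to 3′ along the gene's strand, Gja1 at chr10:56377050-56377299 on the plus strand and Gjb2 at chr14:57104703-57104952 on the minus strand. Capitals mark matches to any of 3 motifs searched on both strands: CAGGTG, the E-box read by Snail and Zeb factors, GGGCGG, the GC box of Sp factors, and TGANTCA, the AP-1 site.
Gja1: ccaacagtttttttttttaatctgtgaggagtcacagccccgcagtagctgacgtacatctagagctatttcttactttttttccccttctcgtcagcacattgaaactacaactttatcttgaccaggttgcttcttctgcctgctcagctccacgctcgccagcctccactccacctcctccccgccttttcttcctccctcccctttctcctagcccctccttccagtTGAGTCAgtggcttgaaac
Gjb2: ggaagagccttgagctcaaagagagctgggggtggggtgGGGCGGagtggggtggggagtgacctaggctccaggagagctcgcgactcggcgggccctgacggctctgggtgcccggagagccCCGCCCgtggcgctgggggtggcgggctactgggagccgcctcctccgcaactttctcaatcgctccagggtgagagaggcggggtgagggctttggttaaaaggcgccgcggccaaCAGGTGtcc
The Gja1 window held 1 AP-1 match, 19 bases before the start, and neither of the other motifs. The Gjb2 window held 2 GC boxes, 211 and 126 bases before the start, and 1 E-box match 9 bases before it, with no AP-1 match. Of 32851 promoter windows of this length, 17.2% held CAGGTG, 32.7% held GGGCGG and 6.75% held TGANTCA. The motifs did not overlap each other in these windows. CG pairs numbered 18 in the Gjb2 and 6 in the Gja1 window, against a median of 6 over all windows. A match describes letters only and is no evidence of binding.

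The tight junction genes were Cxadr and Tjp1. Cxadr, an adhesion protein of tight junctions that also serves as the coxsackievirus and adenovirus receptor, read 400.7, 405 and 417 in epididymal GFP+ and 3130.2, 3978 and 3302 in epididymal GFP- cells. Inguinal arrays read 5.02, 36.6 and 33.0 (GFP+) and 15.1, 32.8 and 21.9 (GFP-), the level of olfactory receptor genes. Every epididymal array was above every inguinal one and the epididymal groups were separate, while the inguinal groups overlapped. Cxadr fell by 3.03 ± 0.26 in epididymal GFP+ against GFP- cells (adjusted p = 8.08e-08), a ratio of means of 8.51 in favour of GFP- cells and the 33rd largest decrease of 12393 genes. In inguinal cells the contrast was -0.03 ± 0.26 (adjusted p = 0.968), and the depots differed by 3.004 ± 0.37 (adjusted p = 7.99e-06). Inguinal against epididymal cells gave -3.49 ± 0.26 among GFP+ cells (adjusted p = 2.13e-08) and -6.49 ± 0.26 among GFP- cells (adjusted p = 3.93e-12). The inguinal level is background, so these sizes too depend on the pseudocount: they were -4.37 and -7.22 with 1 and -2.43 and -5.34 with 64. A second probe set gave -3.60 in the epididymal GFP contrast (adjusted p = 2.25e-10, over 20380 probe sets) and another -1.64 (adjusted p = 7.60e-06). The last, with group means of 16.3 to 22.8, was not called (0.30, adjusted p = 0.364). Between depots the second probe set gave -2.88 among GFP+ and -6.46 among GFP- cells. The third gave less, -0.60 among GFP+ (adjusted p = 0.0257) and -2.32 among GFP- cells (adjusted p = 9.72e-08). The last was called in neither (0.003 and 0.08). The probe set that stands for Cxadr is of a type that can match more than 1 transcript. So are the probe set that stands for Gja1 and most of the 4 brightest Gja1 probe sets.

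**Figure D2:**
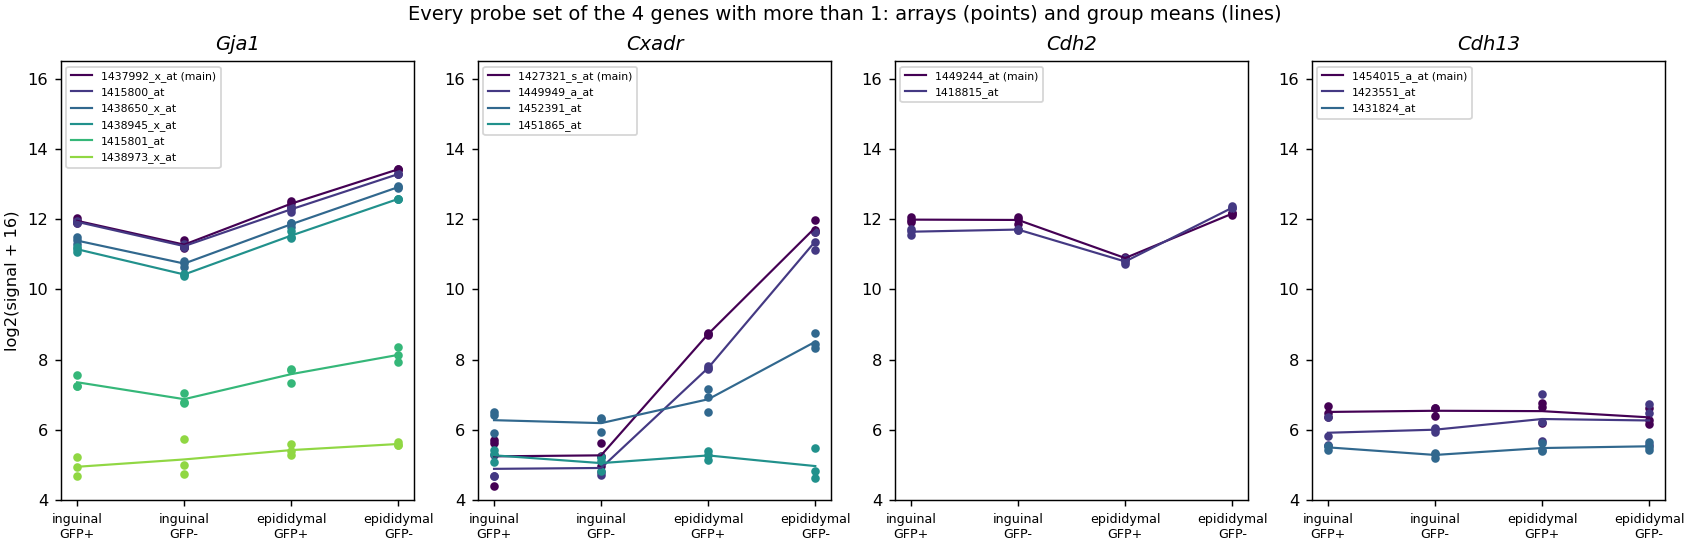
Log2(signal + 16) for every probe set of Gja1, Cxadr, Cdh2 and Cdh13; points are arrays, and lines join group means only to follow a probe set, since the groups have no order. The 4 brightest Gja1 and the 2 brightest Cxadr probe sets run alongside each other, and the dimmest of each was not called in either GFP contrast.

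Tjp1, the zonula occludens scaffold that ties tight junction proteins to actin, varied least of the 6 genes that were not weakly detected. Its arrays read 3933, 4017 and 3943 in inguinal GFP+ and 4370.0, 4421 and 4258 in inguinal GFP- cells. They read 4615, 4856 and 4675 in epididymal GFP+ and 5971, 6081 and 5884 in epididymal GFP- cells. The groups did not overlap, and neighbours in the rising order from inguinal GFP+ through inguinal GFP- and epididymal GFP+ to epididymal GFP- all differed. The closest pair, inguinal GFP- against epididymal GFP+, gave -0.12 ± 0.03 (adjusted p = 0.00364). Tjp1 fell by 0.13 ± 0.03 in inguinal GFP+ against GFP- cells (adjusted p = 0.00522) and by 0.34 ± 0.03 in epididymal cells (adjusted p = 6.19e-08), differing between depots by 0.21 ± 0.04 (adjusted p = 0.00074). Inguinal cells were lower by 0.25 ± 0.03 among GFP+ (adjusted p = 2.82e-06) and by 0.46 ± 0.03 among GFP- cells (adjusted p = 1.12e-09).

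The 8 genes and the lists were chosen with earlier results of these data known, so their shares of called genes describe them and test no excess. Counted over the 8 genes, the inguinal GFP contrast called 4, against 12.6% of all genes: Cdh11, Gjb2 and Tjp1 were lower (background 7.29%) and Gja1 was higher (background 5.26%). The epididymal GFP contrast called 6, all lower, against 41.9% of all genes, 20.3% lower and 21.5% higher. These 6 include Cdh1, which is at background. The median log2 fold change was -0.08 over the 8 genes in inguinal cells, against -0.01 over all genes, and -0.79 in epididymal cells, against 0.01. The interaction was called for 6 (background 34.8%), 5 of them higher (16.1%) and 1 lower (18.7%). The depot comparison called 6 among GFP+ cells (background 50.8%), of which 3 were higher in inguinal cells (23.6%) and 3 lower (27.2%). Among GFP- cells it also called 6 (background 53.7%), Gjb2 higher (27.4%) and 5 lower (26.3%). The 2 crossed comparisons, inguinal GFP+ against epididymal GFP- and inguinal GFP- against epididymal GFP+, called 6 each (backgrounds 56.6% and 46.9%). In the fit over probe sets the inguinal and epididymal GFP contrasts called 10.9% and 39.5% and the interaction 31.7%. The depot comparisons called 48.2% in GFP+ and 51.1% in GFP- cells there, and the crossed ones 53.9% and 44.4%. Only Cdh11, Tjp1 and Gja1 were called in both GFP contrasts, the first 2 in the same direction. In epididymal cells the 5 called genes other than Cdh1 were lower in the group in which mesothelial markers were also lower. Of the 13 markers, 11 fell and none rose (84.6% called, against 41.9% of all genes), among them Upk3b (600 against 9459) and Msln (181 against 2331). Upk3b read 10.5 and 12.48 and Msln 37.2 and 47.3 in inguinal GFP+ and GFP- cells, in which Cxadr was at background. Between depots 11 of the 13 markers were lower in inguinal GFP+ cells and 12 in inguinal GFP- cells, as was Cxadr. The other markers were higher in inguinal cells: Krt7 (564 against 56.1) and Krt19 (1292 against 191) among GFP+ cells. Among GFP- cells it was Krt19 alone (1186 against 216). All 13 markers were called in both comparisons, against 50.8% and 53.7% of all genes. Their part in the differences of the junction genes was not tested.

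**Figure D3:**
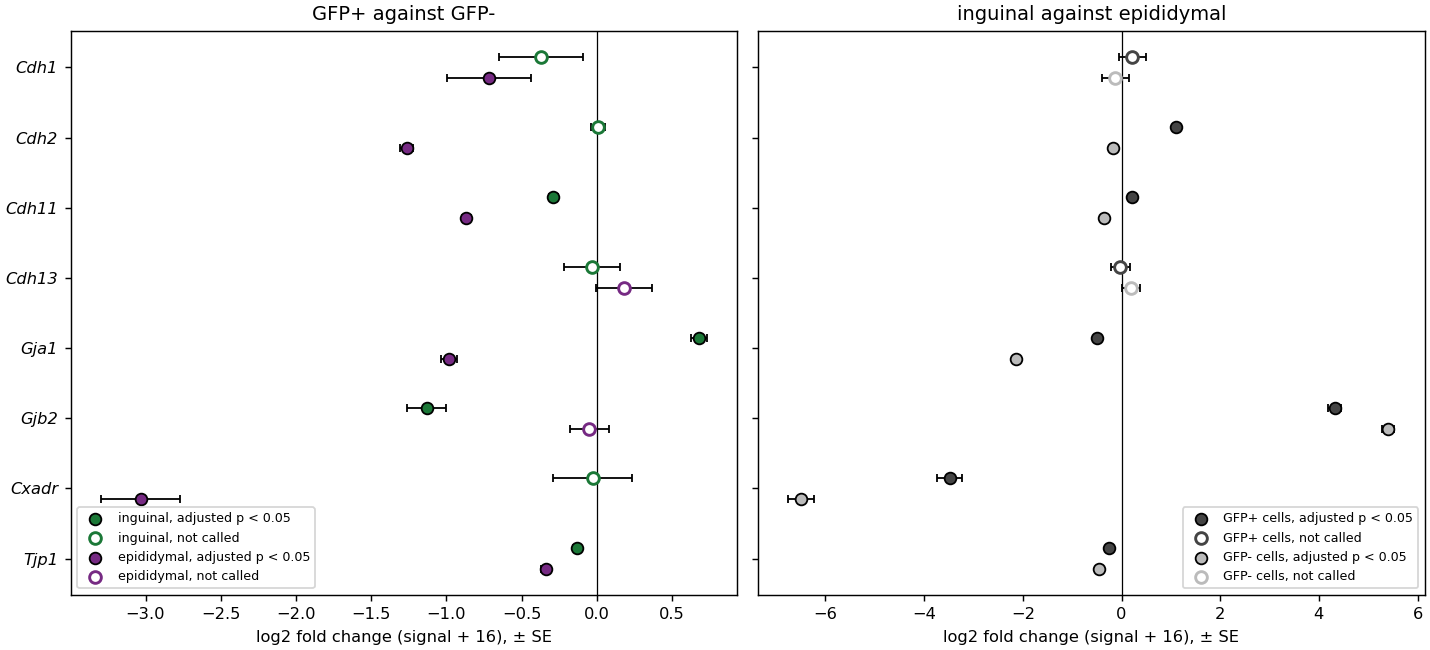
Log2 fold change (± SE, limma on log2(signal + 16), 3 arrays a group) of the 8 genes for GFP+ against GFP- in each depot (left) and inguinal against epididymal separately for GFP+ and GFP- cells (right); filled points passed an adjusted p of 0.05. Gja1 lies right of 0 in inguinal (0.68) and left of 0 in epididymal cells (-0.98), and Gjb2 and Cxadr lie at opposite ends of the depot comparison.

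Other genes of the same junctions were counted from lists of family members, to be read against the 12.6% of all genes called in the inguinal and 41.9% in the epididymal GFP contrast. With weakly detected genes left out of the fit, these shares were 18.4% and 58.5% of 8675 genes. The share of a list thus also depends on how many of its genes were weakly detected. Of 13 other cadherins measured, 10 were weakly detected. Cdh3, the placental cadherin of epithelia, read 348 ± 11.003 in inguinal GFP+, 445 ± 51.3 in inguinal GFP-, 747 ± 73.3 in epididymal GFP+ and 3096 ± 296 in epididymal GFP- cells (SD, n = 3 each). It fell by 2.03 ± 0.09 in epididymal GFP+ against GFP- cells (adjusted p = 2.14e-11) and by 0.33 ± 0.09 in inguinal cells (adjusted p = 0.022; 0.0542 when the inguinal arrays were fitted alone). Cdh5, the endothelial cadherin and weakly detected over all arrays, rose by 1.88 ± 0.22 in epididymal GFP+ cells (adjusted p = 2.52e-06), to 166 from 33.4, which is background. Of the 9 endothelial markers, which include Cdh5, 2 rose and 2 fell in that contrast: Emcn rose as well (1.02 ± 0.19, adjusted p = 0.000397), and Kdr (-2.98 ± 0.14, adjusted p = 6.24e-11) and Esam (-2.59 ± 0.16, adjusted p = 1.53e-09) fell. The part of endothelial cells in the Cdh5 difference was not tested. In all, 2 of the 13 rose and 1 fell in epididymal GFP+ cells (23.1% called, median 0.20 on the log2 scale), and 0 rose and 1 fell in inguinal GFP+ cells (7.69%, median -0.38), both shares below those of all genes. Of 11 protocadherins and large cadherins, 3 rose and 0 fell in epididymal (27.3%, median 0.23) and 2 rose and 1 fell in inguinal GFP+ cells (27.3%, median -0.06). Pcdh18, a protocadherin, rose in both, by 0.46 ± 0.07 (adjusted p = 0.000138) in inguinal and 0.77 ± 0.07 (adjusted p = 6.78e-08) in epididymal cells, and Pcdh20 fell in inguinal GFP+ cells (-1.90 ± 0.21, adjusted p = 1.30e-05; 178 in GFP- and 35.7 in GFP+ cells). Pcdh20 was weakly detected over all arrays and 35.7 is background, so the size of that fall depends on the pseudocount. Its call in epididymal cells (0.59 ± 0.21, adjusted p = 0.0378) lay at background, at 28.4 and 13.6.

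Catenins and linkers join cadherins to actin, and nectins are adhesion proteins beside them; 2 of 14 were weakly detected. Of the 14 measured genes, 3 rose and 8 fell in epididymal GFP+ cells (78.6%, median -0.21, against 41.9% of all genes), and 0 rose and 3 fell in inguinal GFP+ cells (21.4%, median -0.08, against 12.6%). The depot comparison in GFP- cells called 13, 4 higher and 9 lower in inguinal cells, against 53.7% of all genes, 27.4% higher and 26.3% lower. Most of this list was above the weak level. With weakly detected genes left out, the shares over all genes were 58.5% in the epididymal GFP contrast and 71.6% in this depot comparison. Jup, plakoglobin, the catenin shared by adherens junctions and desmosomes, averaged 337 ± 32.6 for inguinal GFP+ and 298 ± 26.8 for inguinal GFP- arrays, and 660.3 ± 3.64 in epididymal GFP+ and 1509 ± 121 in epididymal GFP- cells. It fell by 1.17 ± 0.09 in epididymal GFP+ cells (adjusted p = 9.75e-09) and was lower by 2.28 ± 0.09 in inguinal than epididymal GFP- cells (adjusted p = 1.40e-12). Nectin1, an immunoglobulin-type adhesion protein, rose by 1.13 ± 0.17 in epididymal GFP+ cells (adjusted p = 5.25e-05), to 147 from 60.1, which is within the range of olfactory receptor genes. Nectin2 was lower by 0.95 ± 0.05 in inguinal than epididymal GFP+ cells (adjusted p = 1.95e-10). Of 9 desmosome genes, 3 fell and 0 rose in epididymal GFP+ cells (33.3%, median -0.22) and 1 fell in inguinal GFP+ cells (11.1%, median -0.10); 7 of the 9 were weakly detected. Perp, a desmosomal membrane protein, fell by 3.15 ± 0.14 (adjusted p = 2.94e-11), from 2302 ± 92.4 to 245 ± 14.6, and read 8.02 and 23.5 in inguinal GFP+ and GFP- cells. Its call in inguinal cells (-0.73 ± 0.14, adjusted p = 0.00238) therefore lay at background. Pkp2, a plakophilin, fell by 0.61 ± 0.06 (adjusted p = 3.09e-07).

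Among 11 other connexins and pannexins, 8 were weakly detected. Gjb5, a connexin of skin and placenta, did not share the depot pattern of Gjb2: it read 228 ± 29.3 in inguinal GFP+, 366 ± 19.5 in inguinal GFP-, 356 ± 10.9 in epididymal GFP+ and 2604 ± 42.2 in epididymal GFP- cells. It fell by 2.82 ± 0.08 in epididymal GFP+ cells (adjusted p = 1.24e-13) and by 0.65 ± 0.08 in inguinal GFP+ cells (adjusted p = 4.19e-05). Gjc1 rose by 0.51 ± 0.07 (adjusted p = 1.05e-05) and Panx1, a pannexin, by 0.51 ± 0.07 (adjusted p = 7.83e-06) in epididymal GFP+ cells. In all, 2 of the 11 rose and 1 fell in epididymal (27.3%, median 0.04) and 0 rose and 1 fell in inguinal GFP+ cells (9.09%, median -0.02), shares below those of all genes.

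Of 28 other tight junction genes, 18 were weakly detected. In epididymal GFP+ cells 5 rose and 4 fell (32.1%, median 0.06), below the 41.9% of all genes, and in inguinal GFP+ cells 3 rose and 2 fell (17.9%, median -0.06). The ones that fell included Pard6b, a polarity protein (-3.02 ± 0.39, adjusted p = 8.40e-06; 1218 to 138), which like Cxadr was at background in inguinal cells (22.8 and 26.1). F11r, a junctional adhesion molecule of epithelia, was 2849 ± 34.1 in epididymal GFP+ and 8312 ± 83.3 in epididymal GFP- cells, with 2235 ± 100.2 and 2028 ± 82.3 in inguinal GFP+ and GFP- cells, and its GFP contrast differed between depots by 1.68 ± 0.05 (adjusted p = 8.49e-13). Jam2 and Clmp went the other way, and like F11r they are adhesion molecules of the family that holds Cxadr. Genes of this family thus moved in both directions. Jam2 rose by 2.14 ± 0.10 (adjusted p = 4.24e-11), from 249 to 1143, and Clmp by 1.69 ± 0.08 (adjusted p = 4.14e-11) in epididymal GFP+ cells, and Clmp also rose in inguinal GFP+ cells (0.49 ± 0.08, adjusted p = 0.000421). Ocln, occludin, read 10.7 to 19.2 in the group means.

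Regulators of the epithelial and mesenchymal states were counted from a list of 13 measured genes, 5 of them weakly detected. It holds repressors of epithelial junction genes (the Snail, Zeb and Twist factors) and also Grhl factors and Esrp splicing factors, which are known to favour the epithelial state. The repressor Snai3 read at most 1.63 in any group mean. Snai2, a Snail-family repressor, read 4209 ± 146 in inguinal GFP+, 3552 ± 27.1 in inguinal GFP-, 1706 ± 64.6 in epididymal GFP+ and 390.1 ± 29.5 in epididymal GFP- cells. It rose by 2.09 ± 0.05 in epididymal GFP+ cells (adjusted p = 1.33e-14) and by 0.24 ± 0.05 in inguinal GFP+ cells (adjusted p = 0.00373). Zeb2 rose by 1.49 ± 0.05 (adjusted p = 4.99e-13) and Snai1 by 1.24 ± 0.08 (adjusted p = 2.64e-09) in epididymal GFP+ cells. In inguinal GFP+ cells Snai1 fell by 0.26 ± 0.08 (adjusted p = 0.0437; up to 0.189 with an array left out) and Twist1 rose by 0.36 ± 0.05 (adjusted p = 0.000136). Over the 13 genes of both kinds, 3 rose (Snai1, Snai2 and Zeb2) and 3 fell (Twist1, Grhl1 and Esrp2) in epididymal GFP+ cells (46.2%, median -0.02, against 41.9% of all genes). In inguinal GFP+ cells 2 rose (Snai2 and Twist1) and 2 fell (Snai1 and Zeb1; 30.8%, median -0.01, against 12.6%). Inguinal cells were higher for Snai2 by 1.29 ± 0.05 among GFP+ cells (adjusted p = 8.53e-12) and by 3.14 ± 0.05 among GFP- cells (adjusted p = 5.43e-17).

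**Figure D4:**
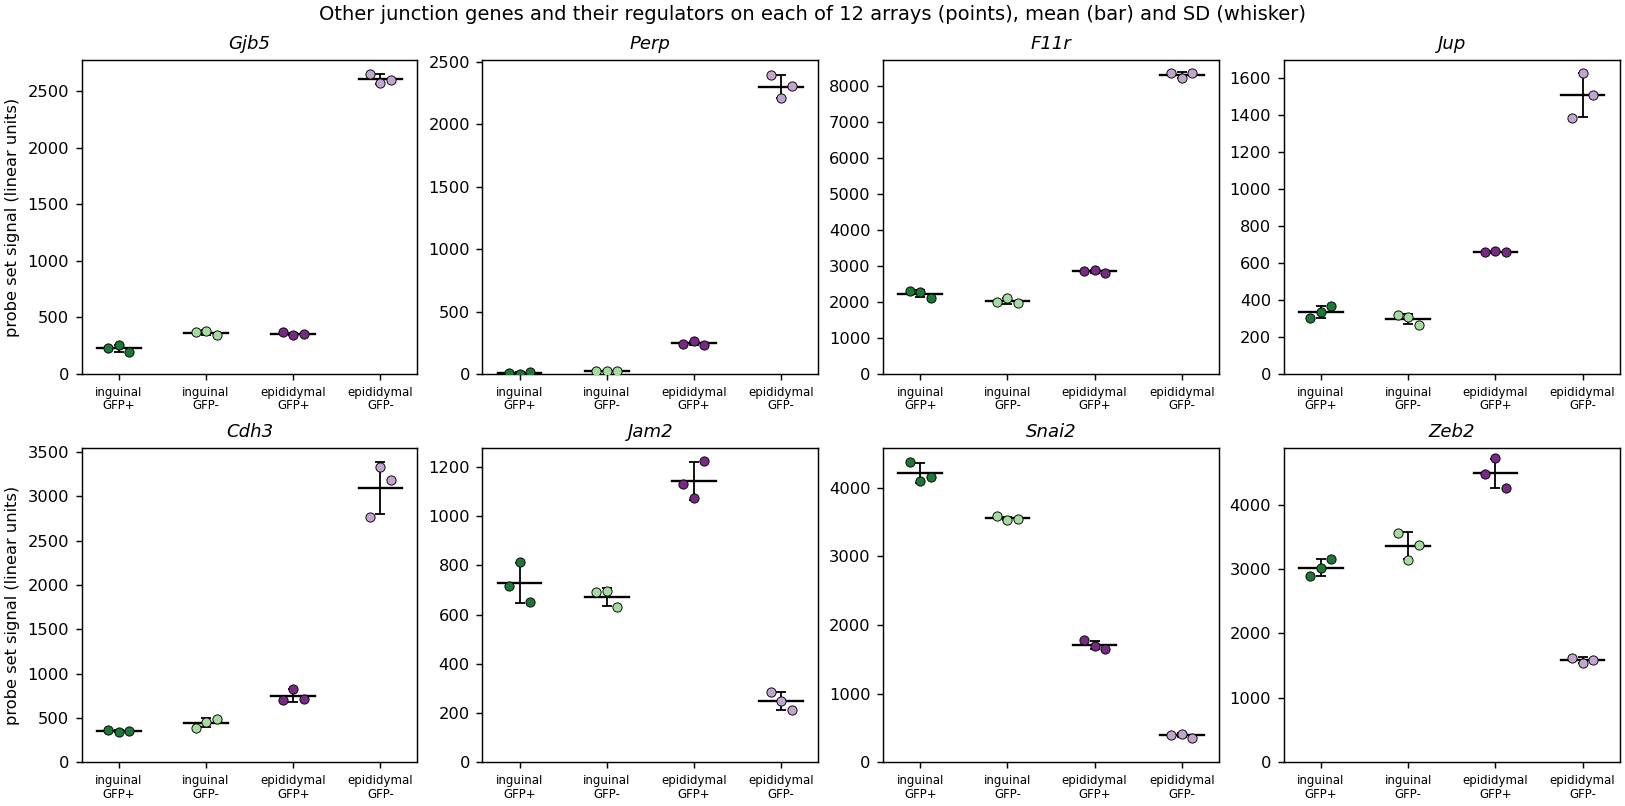
Probe set signal (linear units, a separate axis from 0 in each panel) of other junction genes (Gjb5, Perp, F11r, Jup, Cdh3, Jam2) and of the repressors Snai2 and Zeb2 on each array; points are arrays, bars the mean and whiskers the SD of 3 arrays. Gjb5, Perp, F11r, Jup and Cdh3 are highest in epididymal GFP- cells, where Jam2, Snai2 and Zeb2 are lowest.

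The genes with the most similar profiles were taken by Pearson's r over the 12 arrays on log2(signal + 16), among 8674 or 8675 genes that were not weakly detected. The arrays fall into 4 groups, so r mostly describes the group means. Cxadr was closest to Ddit4l (r = 0.995), Prnp (0.994) and Pawr (0.994), and Tjp1 to Ptk2b (0.995), Tnfaip8 (0.995) and Cnot6 (0.995). Gja1 was closest to Aldh1a1 (0.994), Pgrmc1 (0.989) and Plscr1 (0.989), and Gjb2 to Tcof1 (0.991), Hpf1 (0.991) and Rrp1b (0.990). Cdh11 was closest to Arhgdib (0.994), Anxa8 (0.981) and Ctsd (0.976), and Cdh2 to Tpd52 (0.991), Mtap (0.988) and Anxa2 (0.981). No gene was in more than 1 of these lists. The highest values for Cdh1 (0.891, Deaf1) and Cdh13 (0.811, Baalc) were lower.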

How the data were processed

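RNA from 12 samples was hybridised as biotin-labelled cRNA to Affymetrix arrays, per the labels. The authors deposited probe set intensity on a linear scale; the signal algorithm, scaling and software are not given in the sources used here. Of 22626 probe sets, the platform annotation gave 1 symbol for 20380, several for 691 and none for 1555; symbols were updated by Entrez identifier through RefSeq (GRCm38.p6). Values entered as log2(intensity + 16); of several probe sets for a gene, the one of highest mean was used. Models were fitted with lmFit and trended eBayes of limma 3.58.1 (R 4.3.3) over all 12 arrays, and a second fit over 20380 probe sets gave the values of other probe sets. The fit was tested on simulated data. The 8 genes and the lists were chosen with earlier results of these data known. The rule took, per list and comparison, up to 3 called genes with the largest change that were not weakly detected in the higher group; the text names part of them, chosen after the values were seen, and some genes outside it (such as Ocln, Snai3 and Emcn). Samples were not paired by replicate number in the main fit. Alternatives were another normalization, pseudocount, filter, probe set rule, variance model, minimum change (1.5-fold), only the groups compared, a replicate block and each array left out.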

Additional observations from a re-analysis of the deposited data

Results flagged for a closer look

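The GFP contrast differed between the depots (interaction in limma, adjusted p under 0.05; inguinal minus epididymal log2 fold change) for 6 of the 8 genes, against 34.8% of all genes. The difference was 1.27 for Cdh2, 0.58 for Cdh11, 1.66 for Gja1, -1.08 for Gjb2, 3.004 for Cxadr and 0.21 for Tjp1. For Gja1 every inguinal GFP+ array was above the inguinal GFP- arrays and every epididymal GFP+ array below the epididymal GFP- arrays. Gjb2 and Cxadr were at background in 1 depot, so their difference is that of the other depot alone.

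The same test marked 19 other junction genes and regulators that the rule for named genes took. The rule took at most 3 a list, so 19 is not a share. The interaction was called for 15.4% of other cadherins, 45.5% of protocadherins and large cadherins and 50% of catenins, nectins and linkers. It was called for 27.3% of other connexins and pannexins and 39.3% of other tight junction genes. Desmosome genes had 22.2% called and regulators 53.8%, against 34.8% of all genes. Among the 19, the inguinal contrast was the higher one for Cdh3 (1.69), Celsr2 (1.04), Jup (1.34), Ctnnal1 (1.04), Gjb5 (2.16), Pard6b (2.99), F11r (1.68), Perp (2.42) and Pkp2 (0.53). It was the lower one for Cdh5 (-2.55), Pcdh20 (-2.49), Pcdh1 (-2.31), Nectin1 (-1.01), Panx1 (-0.55), Gjc1 (-0.37), Jam2 (-2.03), Snai2 (-1.84), Zeb2 (-1.65) and Snai1 (-1.50). Averaging over probe sets, Celsr2 (adjusted p = 0.228) and Ctnnal1 (adjusted p = 0.121) were not called. Cdh5, Pcdh1, Pcdh20, Celsr2, Nectin1, Pard6b and Perp had a group mean within the range of olfactory receptor genes in at least 1 group, so the sizes given for them depend on the pseudocount.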

How the results depend on the processing

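The counts of called genes among the 8 stayed within 1.5 times of the reported ones in 165 of 168 alternatives. The exceptions came from requiring a change of at least 1.5-fold, which left 2 of the 8 members in the inguinal GFP contrast, 3 between depots in GFP+ cells and 3 in GFP- cells, by construction. With an array left out the count was 4 in the inguinal GFP contrast throughout and 5 to 6 in the epididymal one. Cdh1 lost its epididymal call with a pseudocount of 1 (-1.54, adjusted p = 0.0505) or 64 (-0.27, adjusted p = 0.0587) and after quantile normalization (-0.70, adjusted p = 0.0592). With the replicate number as a block the members called were 4 and 6 in the inguinal and epididymal GFP contrasts. They were 6 for the interaction and 6 in each depot comparison, as without the block. Deviations of same-numbered samples correlated at -0.129 to 0.117, above 0.1 in 3 of 18 pairs. Differently numbered samples gave -0.159 to 0.143, above 0.1 in 5 of 36 pairs. With 3 arrays a group these values show no pairing by number but cannot exclude it.

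All 29 changes of sign were in differences not called under either setting. In the inguinal GFP contrast Cdh13 gave 0.0314 (quantile), 6.4e-05 (median centring) and 0.0316 (mean of probe sets), Cxadr 0.0101 (quantile), 0.00531 (median centring), 0.0116 (pseudocount 64) and 0.0631 (mean of probe sets), and Cdh2 -0.0261 (mean of probe sets). With an array left out they ranged from -0.11 to 0.0336 (Cdh13), -0.27 to 0.396 (Cxadr) and -0.0433 to 0.0440 (Cdh2), Gjb2 in the epididymal contrast from -0.20 to 0.0447 and Cdh1 between depots in GFP- cells from -0.365 to 0.0495. Between depots in GFP+ cells Cdh13 gave 0.195 (quantile), 0.0455 (median centring) and -0.19 to 0.0869 with an array left out. With the mean of probe sets Cdh13 gave -0.107 between depots in GFP- cells, -0.0753 for inguinal GFP+ against epididymal GFP- and -0.163 for inguinal GFP- against epididymal GFP+, where leaving out an array gave -0.152 to 0.12. The cause was not tested.

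Median centring changed the split of calls over all genes from 652 higher and 904 lower to 986 and 671 in the inguinal GFP contrast, from 2000 and 2313 to 2563 and 1843 for the interaction, and from 2922 and 3370 to 3704 and 2687 between depots in GFP+ cells. By under 10 percentage points, it also turned the majority from 2668 higher and 2519 lower to 2380 and 2843 in the epididymal GFP contrast, from 3433 and 3581 to 3791 and 3221 for inguinal GFP+ against epididymal GFP-, and from 2786 and 3024 to 3192 and 2596 for inguinal GFP- against epididymal GFP+. Quantile normalization turned it between depots in GFP+ cells (3137 and 2887) and in these crossed comparisons (3678 and 3173, 2882 and 2743). Leaving out weakly detected genes turned the crossed comparisons too (3325 and 3142, 2728 and 2717). The former crossed comparison also turned without inguinal GFP+ replicate 2 (3368 and 3316). Calls over all genes fell from 1556 to 392, 5187 to 1677, 4313 to 1744, 6292 to 2193 and 6656 to 2687 with a 1.5-fold minimum. Signals near those of olfactory receptor genes limit Cdh1, Cdh13, Gjb2 in epididymal and Cxadr in inguinal cells.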
